A study of Rattus norvegicus with 8 samples.

Results

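The steroid synthesis enzymes of the brain were followed here through 9 genes: Star, Cyp11a1, Srd5a1, Akr1c14, Cyp19a1, Hsd17b12, Hsd17b4, Hsd17b10 and Sts. Members were all non-control spots of the arrays whose gene name was one of these, which gave 8 genes, 10 probes and 28 spots per array. The Cyp19a1 probe carries an accession in place of a gene symbol, and it was added because that accession belongs to the Cyp19a1 transcript, so the set held 9 of 17635 named genes and 11 of the 30367 unique probes on the array. The animals were Sprague Dawley rats of 3 to 4 months, 4 females in estrus and 4 males, with no treatment named, and the tissue was the hypothalamus, the brain region that sets pituitary hormone release and reproductive behaviour. Total RNA of 1 female and 1 male was hybridized to each of 4 two-colour arrays of 1 slide, with female 1 and male 1 on array 1 and so on. Arrays 1 and 3 had the female labelled with the dye Cy3 and the male with Cy5, and arrays 2 and 4 had the reverse. Because every female was in estrus, sex and stage of the cycle cannot be told apart.

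Steroid hormones are made from cholesterol, which the transport protein Star brings into mitochondria, where Cyp11a1 cuts it to pregnenolone. In nervous tissue, Srd5a1 and Akr1c14 turn progesterone into allopregnanolone, a steroid that strengthens GABA-A receptor currents, and Cyp19a1, known as aromatase, turns androgens into estrogens, a step long studied in the sexual differentiation of the rodent hypothalamus. The 17-beta-hydroxysteroid dehydrogenases exchange active and less active forms of sex steroids and most also serve lipid metabolism, while Sts frees steroids from their sulfate esters.

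Each probe is a 60-base oligonucleotide. The probes below are shown because they carry the values described for Hsd17b12, for the 2 probes of other genes whose levels did not overlap between the sexes, for Sts, and for Cyp11a1, which was close to background. They are given 5′ to 3′ as the array files list them, and the capitals mark the longest stretch, 12 to 15 bases, that also occurs in a probe named for another gene.
Hsd17b12: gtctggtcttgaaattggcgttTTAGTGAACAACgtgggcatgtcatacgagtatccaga
Hsd17b10: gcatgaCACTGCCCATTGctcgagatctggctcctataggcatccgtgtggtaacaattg
Srd5a1: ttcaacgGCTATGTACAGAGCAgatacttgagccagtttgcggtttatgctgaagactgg
Sts: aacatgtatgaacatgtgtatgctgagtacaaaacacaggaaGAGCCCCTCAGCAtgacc
Cyp11a1: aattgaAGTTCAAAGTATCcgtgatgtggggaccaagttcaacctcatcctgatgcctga
On the rn4 build, which the array files use for all positions given here, the 60 bases of the Hsd17b12 probe spread over 16613 bases of the minus strand of chromosome 3 (78470644 to 78487256), so its target is interrupted in the genome. The other probes lie in 60 bases each, on chromosome X for Hsd17b10 (41491297 to 41491356) and Sts (63923747 to 63923806), on chromosome 17 for this Srd5a1 probe (3854451 to 3854510), and on chromosome 8 for Cyp11a1 (61805170 to 61805229), all on the plus strand. The files do not state whether a probe lies in an exon or a UTR.

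The arrays carried 42877 non-control spots. The scanner software called 84.9% to 87.0% of them well above background in Cy3 samples and 77.6% to 80.2% in Cy5 samples, and 0 were saturated. The number of arrays limits the precision. Levels below are normalized log2 intensities in the animal's own dye, and ratios are within-array log2 ratios of female over male. Male 2 stood apart from the other animals. Its median level of 16 hypothalamic peptide genes, each centred over the 8 samples, was -2.31, against 0.22 to 0.49 in the other 7 animals. Its level of 15 marker genes of cortex, hippocampus and striatum was 1.85, against 0.29 in female 2 and -0.41 to -0.23 in the rest. The plot of marker lists by animal shows male 2 low in meningeal markers as well, at -1.63. Males 1, 3 and 4 were at 0.74, 0.44 and -0.50 for these, and females at -0.10 to 0.63. Male 2 was also the lowest animal for pituitary (-0.74) and ependymal markers (-0.50) and the highest for neuron markers (0.42). Oligodendrocyte markers ran from -0.40 to -0.05 in females and from 0.05 to 0.29 in males. The part of these marker levels in the results below was not tested, and the fitted ratio of each tested member probe is also given without replicate 2, that is, from 3 arrays. Of these arrays, only array 4 has the female in Cy5, so with a dye term it is fitted exactly and adds nothing to the residual. For genes of the lists the ratio without replicate 2 is given where it differed by over 1.5 times, and for some others. In whole tissue, fewer cells of a type and less RNA per cell cannot be told apart.

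**Figure D1:**
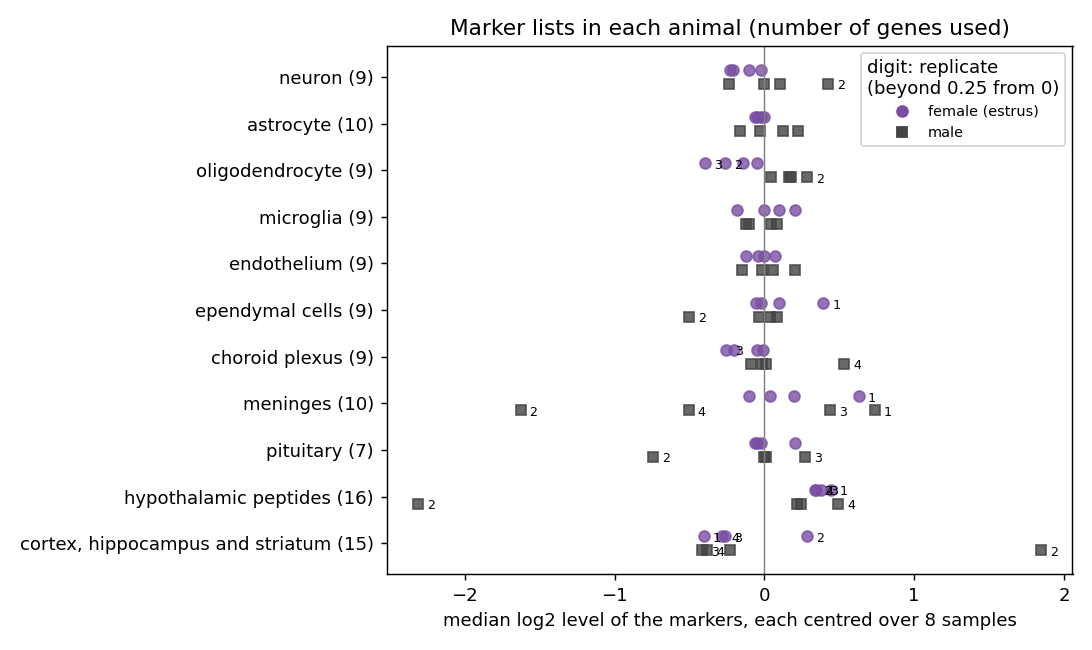
Median log2 level of each marker list (number of genes used in brackets) in each animal, with each gene centred on its mean over the 8 samples. Circles are females in estrus and squares are males, with the replicate number beside values beyond 0.25 from 0. Male 2 is at -2.31 for hypothalamic peptides and at 1.85 for cortex, hippocampus and striatum.

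Of the 11 probes, 8 probes of 7 genes passed the filter on dim probes and were tested with limma over the whole array. None of the 8 had an adjusted p under 0.05, and the share over all 21995 probes tested was likewise 0%. At an unadjusted p under 0.05 the count was 1 of 8, Hsd17b12, against 8.50% of all probes. That probe also differed by over 1.5-fold, which held for 0.814% of all probes. The fitted log2 ratio was above 0 for 4 of the 8 probes and below 0 for 4, with a median of 0.03, beside a median of 0.02 over all probes. The ratio kept 1 sign on 4 of 4 arrays at 3 of the 8 probes (11.0% of all probes), and the levels of the sexes did not overlap at 2 of the 8 (2.89% of all probes). The 95% interval of the ratio held 0 at 7 of the 8 probes.

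**Figure D2:**
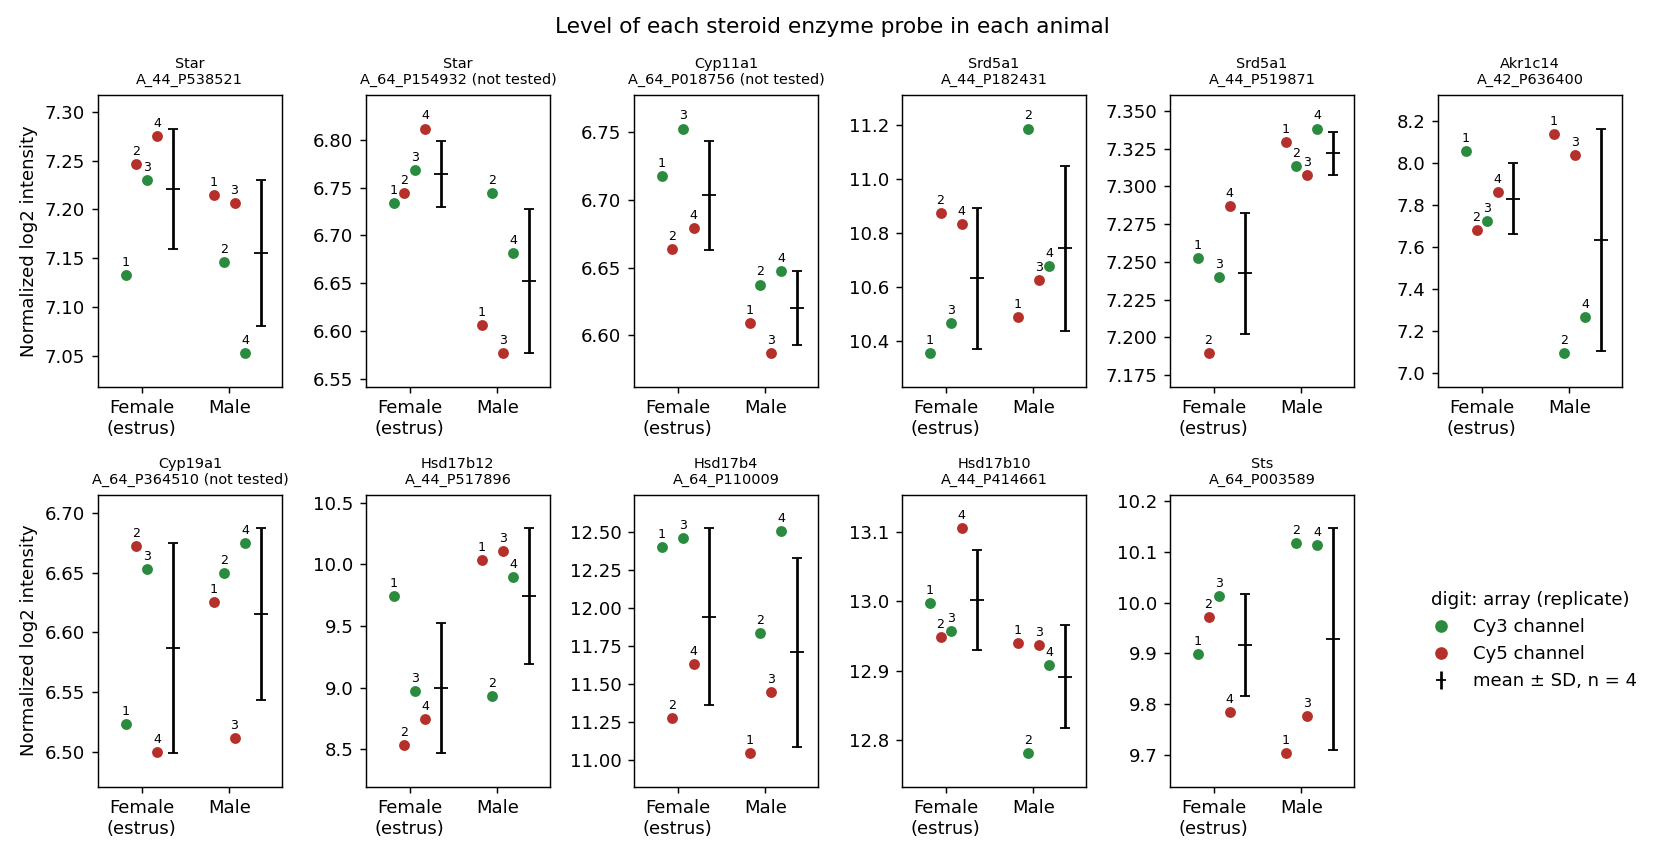
Normalized log2 intensity of each of the 11 probes in each animal, females in estrus left of males, on a separate vertical scale in each panel. Digits give the array, colour gives the dye and bars give the mean ± SD over 4 animals. The sexes are apart without overlap at Hsd17b10, at Srd5a1 probe A_44_P519871 and at the untested Cyp11a1 probe, and overlap at the 8 others.

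Star and Cyp11a1 begin the pathway, and both gave weak signals in these hypothalami. Star, the carrier that delivers cholesterol to the inner mitochondrial membrane, had its first probe (A_44_P538521) on 10 spots per array (chromosome 16, 70640879 to 70640938, minus strand). Its level was 7.13, 7.25, 7.23 and 7.28 in females 1 to 4 and 7.21, 7.15, 7.21 and 7.05 in males 1 to 4. The ranges overlapped, and females averaged 7.22 ± 0.06 against 7.16 ± 0.07 in males (SD, n = 4 each). The ratios on arrays 1 to 4 were -0.08, 0.10, 0.02 and 0.22, while the SD between spots of the same array ran from 0.05 to 0.11. The ratio was below 0 on array 1 and above 0 on the other 3 arrays. The fitted log2 ratio of Star was 0.07 ± 0.07 (SE, 95% interval -0.11 to 0.25, limma adjusted p = 0.686), and 0.10 without replicate 2. It was 0.04 without replicate 3 and 0.04 without replicate 4, and 0.26 with the scanner software's log ratio and 0.27 with the authors' value table. The difference between the means was about as large as the SD within each sex.

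The second Star probe (A_64_P154932, chromosome 16, 70642580 to 70642639) was well above background in 3 females and 2 males and was not tested. Its levels were 6.73, 6.74, 6.77 and 6.81 in females and 6.61, 6.74, 6.58 and 6.68 in males. The ratio was below 0 by a small margin on array 2 and stood at 0.13, 0.19 and 0.13 on arrays 1, 3 and 4. When the filter was lifted, limma gave 0.11 ± 0.05 (adjusted p = 0.600), so both Star probes were a little above 0 without passing the threshold.

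Cyp11a1, the side-chain cleavage enzyme whose product is pregnenolone, was at the limit of detection. Its spot read 34.6, 32.8, 41.2 and 33.7 intensity units in females 1 to 4 and 32.3, 32.1, 33.9 and 34.1 in males 1 to 4. Local background was 29.5 to 40 units around the female spots and 31 to 42 around the male spots. The scanner software called the spot well above background in 2 females and 2 males, which were all 4 of the samples in Cy3 and none of those in Cy5. Yet the spot mean was below its local background in female 1 (34.6 against 37), male 2 (32.1 against 42) and male 4 (34.1 against 39). In female 3 it was just above (41.2 against 40). The software's call therefore went with the dye and not with the sex. The normalized levels of 6.66 to 6.75 in females and 6.59 to 6.65 in males did not overlap, and without the filter limma gave a log2 ratio of 0.08 ± 0.04 (adjusted p = 0.623).

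Srd5a1 and Akr1c14, the reductases that act in turn on progesterone, were both measured in all 8 animals. Srd5a1, which makes dihydroprogesterone and dihydrotestosterone, had 2 probes on chromosome 17. The brighter one (A_44_P182431, 3878645 to 3878704) had levels of 10.35, 10.87, 10.46 and 10.83 in females and 10.49, 11.19, 10.62 and 10.67 in males. Male 2, the animal with the high cortical markers, was the highest of all 8. The ratios on arrays 1 to 4 were -0.13, -0.31, -0.16 and 0.16. Their fit gave -0.11 ± 0.10 (95% interval -0.38 to 0.16, limma adjusted p = 0.654), which became 0.0048 without replicate 2 and -0.23 without replicate 4. The ratio was below 0 on 3 arrays and above 0 only on array 4. The fit moved near 0 without replicate 2 and further below 0 without replicate 4.

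The dimmer Srd5a1 probe (A_44_P519871, sequence above) had levels of 7.25, 7.19, 7.24 and 7.29 in females against 7.33, 7.31, 7.31 and 7.34 in males. Every female lay below every male, and the ratios on arrays 1 to 4 were -0.08, -0.12, -0.07 and -0.05. The gap between the means, 7.24 ± 0.04 in females and 7.32 ± 0.01 in males (SD, n = 4 each), was small. The fitted log2 ratio was -0.08 ± 0.06 (95% interval -0.25 to 0.09, limma adjusted p = 0.620) and -0.06 without replicate 2. The size varied with the processing, at -0.10 with an offset of 16, -0.17 with no background correction and -0.51 with the authors' value table, which differs in several steps at once. The spot was dim, reading 51 to 122.5 intensity units over a local background of 29 to 41. At this signal the residual SD between arrays was 0.0366, and 94.9% of all probes had a larger one.

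Akr1c14, the reductase of rat brain that yields allopregnanolone, was measured on 10 spots per array (chromosome 17, 77317088 to 77317147, minus strand). Its levels were 8.05, 7.68, 7.72 and 7.86 in females and 8.14, 7.09, 8.04 and 7.27 in males. Females lay close together at 7.83 ± 0.17, whereas males split into a high and a low pair at 7.63 ± 0.53 (SD, n = 4 each). The high males, 1 and 3, were in Cy5, and the low males, 2 and 4, were in Cy3. The ratios split by dye orientation. With the female in Cy3 (arrays 1 and 3) they were -0.08 and -0.31. With the female in Cy5 (arrays 2 and 4) they were 0.58 and 0.59. The SD between the spots of an array was 0.0973 to 0.157, smaller than the distance between these pairs of arrays. The dye effect was -0.39 ± 0.07 with a limma adjusted p of 0.0438. Females averaged 7.89 in Cy3 and 7.77 in Cy5, whereas males averaged 7.18 in Cy3 and 8.09 in Cy5. Whether the split came from the dye or from these animals was not tested. With the dye in the model the sex ratio was 0.20 ± 0.07 on the log2 scale (95% interval -0.0005 to 0.39). Its unadjusted p was 0.0504, the adjusted p from limma was 0.555, and the ratio was 0.20 without replicate 2. The size varied with the processing, at 0.48 with no background correction and 0.77 with the scanner software's own log ratio, which differs in several steps at once.

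Cyp19a1, or aromatase, was not measured above background in most animals (probe A_64_P364510, chromosome 8, 57651896 to 57651955, minus strand). The spot read 29.0, 56.4, 30.1 and 29.3 intensity units in females 1 to 4 and 37.1, 57.2, 33.1 and 28.6 in males 1 to 4. It was called well above background only in female 2 and male 2, which shared array 2. On that array the local background was also higher, 53 and 66 units in those samples against 33 to 47 elsewhere. The spot mean was just above its local background in female 2 (56.4 against 53) and below it in male 2 (57.2 against 66). Aromatase RNA was thus not called well above background in 3 of 4 females and 3 of 4 males. The calls in female 2 and male 2 had spot means near or below local background, and a sex difference was not detectable at this signal. Without the filter the log2 ratio was -0.03 ± 0.07 (limma adjusted p = 0.907).

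Hsd17b12 differed most among the members. It encodes an enzyme of the endoplasmic reticulum that reduces ketoacyl chains in the elongation of very long fatty acids and can convert estrone to estradiol. Its levels were 9.74, 8.53, 8.97 and 8.74 in females and 10.04, 8.93, 10.11 and 9.90 in males. The females averaged 9.0 ± 0.53 and the males 9.74 ± 0.55 (SD, n = 4 each). Within each array the female was lower, yet the sexes overlapped, since female 1 was above male 2. The ratios on arrays 1 to 4 were -0.30, -0.39, -1.14 and -1.16, small on arrays 1 and 2 and larger on arrays 3 and 4, and each of these pairs holds both dye orientations. The fitted log2 ratio was -0.75 ± 0.20 (95% interval -1.30 to -0.19), a level 1.68-fold lower in females. The unadjusted p from limma was 0.0196, and 3.52% of all probes had an unadjusted p under 0.05 with a lower level in females. The adjusted p was 0.555, so the probe did not pass the threshold. Only 0.600% of all probes had a ratio of larger size, and 6.61% had a larger residual SD between arrays than its 0.569.

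The Hsd17b12 ratio stayed below 0 under all 15 alternatives, between -1.04 with the authors' value table and -0.54 without replicate 3, where the unadjusted p was 0.0760. Without replicate 2, and so without male 2, the ratio was -0.94. In that fit array 4, with a ratio of -1.16, is the only array with the female in Cy5 and adds nothing to the residual. The dye effect at this probe was 0.03 ± 0.20. Among the Cy3 channels, females averaged 9.36 and males 9.41, whereas among the Cy5 channels females averaged 8.64 and males 10.07. The difference between channels of the same dye was therefore -0.06 in Cy3 and -1.43 in Cy5, each from 2 females and 2 males. In a fit of separate channels without the array as a replicate block, the ratio was again -0.75, with an SE of 0.35 and an unadjusted p of 0.0695.

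Hsd17b4, the multifunctional enzyme of peroxisomes that shortens fatty acids and oxidizes estradiol to estrone, varied chiefly with the dye. Its probe (A_64_P110009, chromosome 18, 45251361 to 45251420) had levels of 12.40, 11.28, 12.46 and 11.63 in females and 11.05, 11.83, 11.45 and 12.50 in males. The 4 ratios were 1.35, -0.56, 1.01 and -0.87 on arrays 1 to 4. On both arrays with the female in Cy3 the ratio was above 0, averaging 1.18, and on both with the female in Cy5 it was below 0, averaging -0.72. The dye effect of 0.95 ± 0.10 had a limma adjusted p of 0.0218. With that effect in the model the sex ratio was 0.23 ± 0.10 on the log2 scale (95% interval -0.04 to 0.51, limma adjusted p = 0.555), and 0.15 without replicate 2. Of the 8 tested probes, 2 had a dye effect past the threshold, Hsd17b4 and Akr1c14, beside 12.7% of all probes. At these 2 probes and at Sts the sign of the ratio changed with the dye orientation. No share over all probes is given for that pattern.

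Hsd17b10, a mitochondrial dehydrogenase of isoleucine breakdown that is also a subunit of mitochondrial RNase P and can oxidize allopregnanolone, was nearly level between the sexes. Its levels were 13.00, 12.95, 12.96 and 13.11 in females against 12.94, 12.78, 12.94 and 12.91 in males. The lowest female stood just above the highest male, and the ratios on arrays 1 to 4 were 0.06, 0.17, 0.02 and 0.20. The residual SD between arrays was 0.0232, and 98.1% of all probes had a larger one. The fitted log2 ratio was 0.11 ± 0.06 (95% interval -0.05 to 0.28, limma adjusted p = 0.565), or 1.08-fold, and 0.12 without replicate 2. Of the members measured without overlap, Hsd17b10 was thus higher in females and the dimmer Srd5a1 probe lower, and neither passed the threshold.

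Sts, the sulfatase that releases dehydroepiandrosterone and estrone from their sulfates, had an X-linked probe. Its levels were 9.90, 9.97, 10.01 and 9.78 in females and 9.70, 10.12, 9.78 and 10.11 in males. Females averaged 9.92 ± 0.10 and males 9.93 ± 0.22 (SD, n = 4 each), and the females lay within the range of the males. The ratios of 0.20, -0.15, 0.24 and -0.33 on arrays 1 to 4 changed sign with the dye, although the dye effect of 0.23 ± 0.07 did not pass (limma adjusted p = 0.108). The fitted log2 ratio was -0.01 ± 0.07 (95% interval -0.20 to 0.17, limma adjusted p = 0.954), -0.0561 without replicate 2 and 0.0349 without replicate 4. The females of arrays 1 and 3 were above their males and those of arrays 2 and 4 below them.

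**Figure D3:**
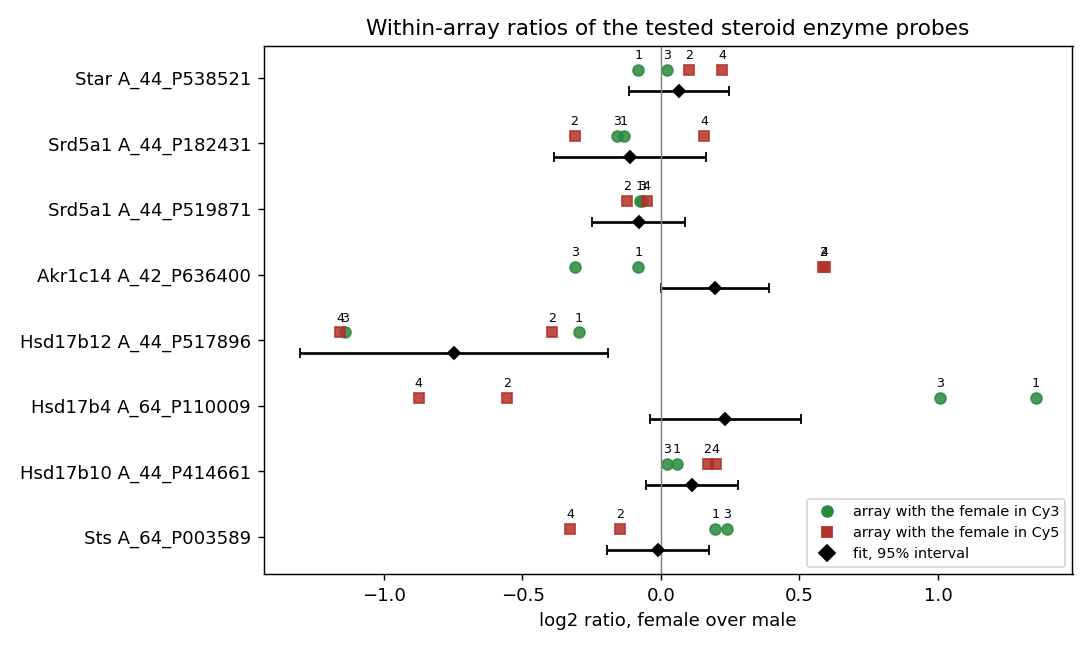
Within-array log2 ratio of female over male at the 8 tested probes. Circles are the arrays with the female in Cy3 and squares those with the female in Cy5, with the array number above, and the diamond under them is the fitted ratio with its 95% interval. The circles and squares of Hsd17b4, Akr1c14 and Sts lie apart by dye, and the interval of Hsd17b12, -1.30 to -0.19, is the one that leaves out 0.

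**Figure D4:**
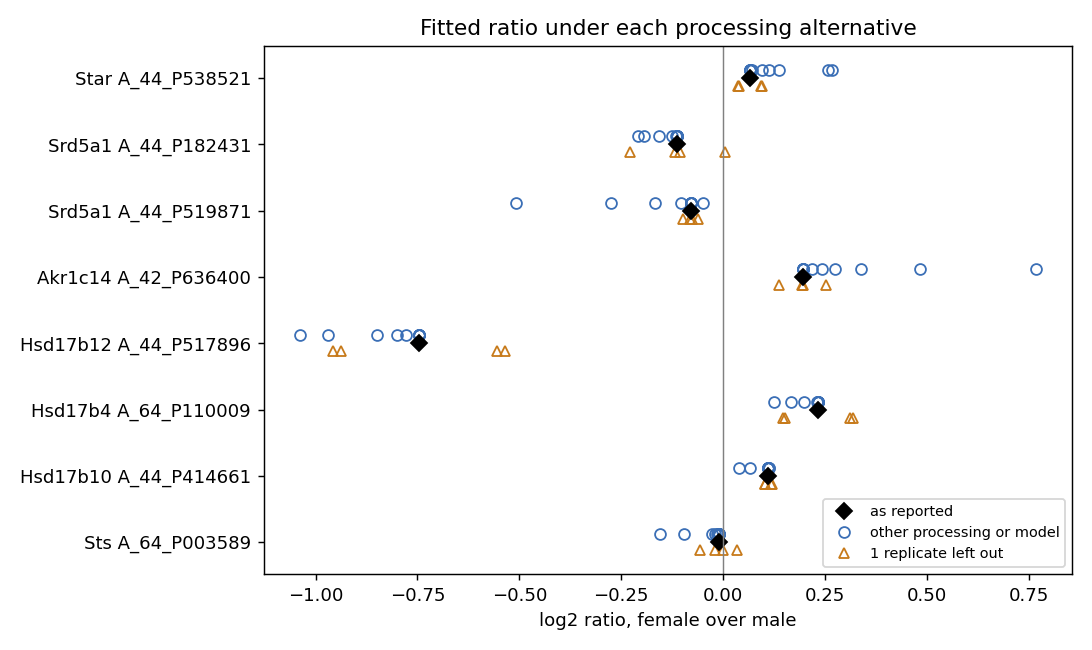
Fitted log2 ratio of female over male at the 8 tested probes as reported (diamonds), under other processing or models (circles) and with 1 replicate left out (triangles). Hsd17b12 stays between -1.04 and -0.54. The brighter Srd5a1 probe and Sts each cross 0 with 1 replicate left out, and Akr1c14 reaches 0.77.

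The members did not share 1 pattern over the animals. After each gene was centred within each dye, correlations between the brightest probes of the 7 measured genes over the 8 animals ran from -0.91 between Srd5a1 and Akr1c14 to 0.81 between Hsd17b10 and Hsd17b4. The 8 points share 4 arrays, and male 2 was the highest animal for Srd5a1 (0.52 above its dye's mean) and the lowest for Akr1c14 (-0.44). Sts was likewise opposed to Akr1c14 at -0.88 and parallel to Srd5a1 at 0.74. Among 12985 named genes, those most like Hsd17b12 over the 8 animals were Txnrd1 (r = 0.993), a thioredoxin reductase gene, Tmed2 (0.990) and Vstm2b (0.988). On arrays 1 to 4, Txnrd1 had ratios of -0.22, -0.44, -1.09 and -0.80, Tmed2 had -0.10, -0.04, -0.32 and -0.20, and Vstm2b had 0.11, -0.34, -0.67 and -0.73. As they were picked for their likeness to Hsd17b12, these ratios are a description only. The genes most like Srd5a1 were Depdc5, Shf and Zfp523, and those most like Akr1c14 were Celsr3, Smoc2 and Mettl21a. For Star they were Lnx1, Iqcf1 and Zfp788, and for Sts they were Galntl6, Arhgef18 and Ppp2r3b. For Hsd17b4 they were Alkbh8, Lrpap1 and Mrpl28, and for Hsd17b10 they were Hps1, Unc45a and Akr1b8. These are the highest of many correlations over few animals and carry no test.

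The genes around these enzymes were read from lists of 170 genes, of which 137 were tested at their brightest probe. By limma, 0 of the 137 had an adjusted p under 0.05, and 9, or 6.57%, had an unadjusted p under 0.05, beside 8.64% of the 13661 named genes tested. The adjusted p of each of the 9 was 0.555. Of these, 5 were higher in females (5.01% of all genes) and 4 were higher in males (3.62% of all genes). That split was 2 and 3 with median centring, 3 and 3 with the scanner software's log ratio and 3 and 6 with the authors' value table. Over all genes it was 685 and 495, against 232 and 515, 386 and 580, and 161 and 1047 under the same settings. The ratio was above 0 in 78 of the 137 genes and below 0 in 59, with a median of 0.03, and it was above 0 in 55.5% of all genes. With the authors' value table that share was 36.2%.

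Among the other steroid enzymes, 30 genes were tested, with a median log2 ratio of 0.03. At an unadjusted p under 0.05 there were 2 (6.67%), beside 8.64% of all named genes. These 2 were higher in females, as were 5.01% of all named genes, and 0 were higher in males. Hsd11b2, which inactivates glucocorticoids, had ratios of 0.20, 0.72, 0.69 and 0.92 on arrays 1 to 4. The sulfotransferase gene Sult1a1 had a fitted ratio of 0.50 ± 0.07 and a sign that changed with the dye, being -0.22 and -0.46 where the female was in Cy3 and 1.29 and 1.38 where the female was in Cy5. Por, the electron donor of microsomal cytochromes P450, stood at 0.18 ± 0.07 with an unadjusted limma p of 0.0516.

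For cholesterol handling and transport, 18 genes had a median of 0.02. Beside 5.01% of all named genes, 1 (5.56%) was higher in females at that threshold. This was Tspo, a cholesterol-binding protein of the outer mitochondrial membrane, with ratios of 0.33, 0.92, 0.26 and 0.17 on arrays 1 to 4. Its fit was 0.42 ± 0.14, and 0.23 without replicate 2, whose array held its highest ratio. Abcg1, a sterol exporter, was at -0.17 ± 0.06 and the lipase gene Lipe at 0.17 ± 0.08, neither past that threshold. The ratio of Lipe was below 0 with the female in Cy3 and above 0 with the female in Cy5.

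Cholesterol synthesis was the list with the most genes at an unadjusted p under 0.05, 3 of 22 (13.6%), beside 8.64% of all named genes. All 3 were higher in males, as were 3.62% of all named genes at that threshold. The median of the list was 0.02. Insig1, which holds back the sterol-sensing machinery, had ratios of -0.21, -0.57, -0.12 and -0.58 on arrays 1 to 4 and a fit of -0.37 ± 0.06. Sc5d, a late desaturase, was at -0.53 ± 0.17, with ratios of 0.08, -1.62, 0.10 and -0.69, and at -0.30 without replicate 2. Insig1 was -0.37 without replicate 2. The list ran to 12 genes above 0 and 10 below.

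In the list of steroid receptors and binding proteins, 13 genes were tested, with a median of 0.03. At an unadjusted p under 0.05 there was 1 gene (7.69%), beside 8.64% of all named genes. This was Gabra4, a GABA-A receptor subunit of forebrain neurons, higher in males at -0.36 ± 0.11 and at -0.23 without replicate 2. Gabrd, the subunit of the GABA-A receptors most sensitive to allopregnanolone, had a ratio of -2.40 on array 2, which held male 2, and -0.19, 0.22 and -0.32 on arrays 1, 3 and 4. Its fit of -0.67 ± 0.37 became -0.15 without replicate 2. Pgrmc1, a progesterone-binding membrane protein, was at 0.28 ± 0.14 and at 0.09 without replicate 2. The ratio of Pgrmc1 was below 0 with the female in Cy3 and above 0 with the female in Cy5.

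In the lists chosen around single members, 0 genes had an adjusted p under 0.05 by limma, and the counts at an unadjusted p under 0.05 stand beside 8.64% of all named genes. Sulfatases, the relatives of Sts, had 13 tested genes, a median of -0.02 and 1 gene (7.69%) at an unadjusted p under 0.05, Arsb at 0.22 ± 0.06, whose sign followed the dye. Peroxisomal beta-oxidation, the setting of Hsd17b4, had 15 tested genes, a median of 0.05 and 1 such gene (6.67%), the transporter gene Abcd4 at 0.27 ± 0.08. Abcd4 had ratios of 0.61 and 0.61 with the female in Cy3, and 0.05 and -0.21 with the female in Cy5. Fatty acid elongation, in which Hsd17b12 acts, had 11 tested genes, a median of -0.01 and 0 such genes. Its Elovl2 stood at -0.13 ± 0.06 and Hacd1 and Hacd2 at 0.12 ± 0.08 and 0.13 ± 0.09. The sign of each of these also changed with the dye orientation, and Hacd2 was at 0.21 without replicate 2. The mitochondrial partners of Hsd17b10 had 9 tested genes, a median of 0.03 and 0 such genes, with Trmt10c, another subunit of mitochondrial RNase P, at 0.15 ± 0.07. The sign of Trmt10c changed with the dye too, at 0.60 and 0.67 with the female in Cy3 and -0.41 and -0.26 with the female in Cy5. Regulators of steroidogenic genes had 7 tested genes, a median of 0.19 and 0 such genes, with Nr4a1 at -0.47 ± 0.23 and Crem at 0.19 ± 0.11. Without replicate 2 these were -0.23 and 0.12.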

How the data were processed

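Per the submitters' processing notes, Agilent Feature Extraction 10.7.3.1 wrote the deposited array files. Spot and local background signals are intensity values as scanned, per the file headers, and the deposited log ratio is log10 of red over green processed signal. In the authors' deposited value table the log2 values match, to within 0.01 for 100% of entries, the log2 of background-subtracted median signal shifted so that each sample's median is 0. Columns of other samples numbered 0.

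In limma 3.58.1 (R 4.3.3), normexp with an offset of 50 corrected the mean signals, and loess, in which control spots had weight 0, normalized each array. Spots marked as outliers, 931 to 1096 an array, were dropped before a probe's spots were averaged. The filter asked that over 0.5 of a probe's spots be well above background in every sample of 1 sex or the other, and 21995 probes were fitted. The model of the within-array ratio had terms for sex and dye (lmFit, eBayes), and p-values were adjusted by Benjamini-Hochberg over all probes, threshold 0.05. Levels were taken after loess and Aquantile scaling. Lists used the brightest probe of a gene. Named were every member probe, the 3 genes of each list with the smallest p and the 3 most alike genes of each measured member. The text gives fewer than all of these, and 1 list gene is not reported here.

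Each female shared an array with the male of the same number, which is the block of the fit. After centring by dye, the departures of an array's female and male from the mean of their own sex had a correlation over genes, which are not independent replicates, of 0.58, 0.65, 0.42 and -0.06 for arrays 1 to 4. The animals are separate per the labels. All 4 arrays were on 1 slide and scanned on 1 date, so no batch was tested. Members and lists were chosen with earlier results of these data known. The fit was tested on simulated data. Alternatives changed the dye term, the block, background, offset, normalization, source of values, filters, prior and threshold, and left out each replicate. Plots used matplotlib 3.10.9 and Python 3.11.15.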

Additional observations from a re-analysis of the deposited data

How the results depend on the processing

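The 8 tested steroid enzyme probes had 0 adjusted calls under every alternative fit, including those that left out a replicate (0 to 0), and 1 at an unadjusted p under 0.05 with 1.5-fold, a rule that called 179 of all probes. At an unadjusted p alone, 1 member probe became 2 without background correction, without the filter, with offset 16, with outlier spots kept, with an intensity trend, or with the scanner software's log ratio. Over all probes the count without the filter was 2551 of 30358. In the other settings just named it was 1658 to 1870 of 21995 to 22004. The 1 member probe became 0 without the array as replicate block, beside 1726 of all 22000 probes, and 0 to 3 with a replicate left out. In each fit with a replicate left out, 1 array is alone in its dye orientation. That array is fitted exactly and adds nothing to the residual. Without replicate 4 it is array 2, which holds male 2. The 3 without replicate 4 were Hsd17b12, Hsd17b4 and the brighter Srd5a1 probe, beside 6481 of all 21854 probes tested in that setting. Over all probes, 0 adjusted calls became 1486 of 21854 without replicate 4 (range 0 to 1486). Among list genes, 0 adjusted calls became 10 (range 0 to 10), and the cause of these changes was not tested. The residual without replicate 4 comes from arrays 1 and 3 alone. At an unadjusted p, 1870 of 21995 probes became 638 of 22000 without the dye term and 1142 of 21995 with median centring. With a replicate left out they became 428 of 21964 to 6481 of 21854. The 9 of 137 list genes became 4, 5 and 3 to 39 in the same settings, and 16 without the filter, beside 2551 of all 30358 probes. Direction reversed at the brighter Srd5a1 probe without replicate 2 (0.0048, range with a replicate left out -0.229 to 0.0048) and at Sts without replicate 4 (0.0349, range -0.0561 to 0.0349). The other 6 tested probes kept their direction in all 15 alternatives. Signal near background limits Cyp19a1, Cyp11a1 and the second Star probe.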
